A study of Mus musculus with 2 samples.

Results

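The genes described here are the mouse alpha-defensins (Defa genes) and 9 other secreted products of Paneth cells: Lyz1, Lyz2, Ang4, Itln1, Mmp7, Mptx1, Mptx2, Pla2g2a and Clps. They were chosen by symbol. Of the 22253 genes in the expression matrix, 28 carried a Defa symbol and at least 1 count, which with the 9 others gave 37 genes. The matrix came from a droplet experiment on sorted epithelial cells of distal small intestinal organoid cultures, in which 5 cultures were marked with hashtag oligos, pooled and sequenced as 1 RNA library beside 1 hashtag library that shared all 3409 cell barcodes. All cultures carried the reporters Neurog3-RFP and Gcg-Venus; 2 were controls and 3 were Etv1 mutants. The labels used here do not say what kind of mutation Etv1 carried, which fluorescent cells were sorted, or how old the source mice were.

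Alpha-defensins are small cysteine-rich peptides that Paneth cells, the granule-filled cells at the base of small intestinal crypts, store and release against bacteria. They are made as pro-peptides, and in the mouse the metalloproteinase Mmp7 (matrilysin) cuts them into the active form. Lyz1 is the lysozyme of Paneth cells, Lyz2 the lysozyme of myeloid cells, Ang4 an antimicrobial ribonuclease, Itln1 a lectin that binds microbial sugars, Mptx1 and Mptx2 pentraxin-like lectins, Pla2g2a a secreted phospholipase and Clps the cofactor of pancreatic lipase, also found in Paneth cells. RefSeq annotates Pla2g2a as a transcribed pseudogene in the C57BL/6J reference.

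The 28 Defa genes lay on chromosome 8 between 21025545 and 21735471 (GRCm38), a span of 710 kb. Their coding sequences are so alike that the deposited counts, which are estimates that may divide a molecule over several genes, could be split only in part. The coding sequences of Defa3 and Defa17 did not differ at any of 279 bases, nor did those of Defa23 and Defa31 or of Defa36 and Defa37. Defa2 and Defa33 were identical over 285 bases, Defa20 and Defa32 likewise, and Defa2 differed from Defa20 at 1 base. Defa24 and Defa30 differed at 4 of 279 bases. The last coding exon, which encodes most of the mature peptide, is printed for the genes on which the results below turn, from the GENCODE transcripts of the GRCm38 build, all on the plus strand. For Defa24 and Defa30, capitals mark the 2 bases that differ between them. For Defa34, capitals mark its 28 differences from Defa30. Defa17, whose exon is identical in Defa3, has none.
Defa24, chr8:21735268-21735374: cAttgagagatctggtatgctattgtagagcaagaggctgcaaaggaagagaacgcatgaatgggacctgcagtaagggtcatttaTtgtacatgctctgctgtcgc
Defa30, chr8:21135394-21135500: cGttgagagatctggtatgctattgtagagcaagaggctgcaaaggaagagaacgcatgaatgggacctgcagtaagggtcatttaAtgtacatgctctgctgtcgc
Defa34, chr8:21666530-21666636: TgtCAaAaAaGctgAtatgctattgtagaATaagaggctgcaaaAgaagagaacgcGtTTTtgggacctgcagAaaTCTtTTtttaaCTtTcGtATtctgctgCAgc
Defa17, chr8:21656532-21656638: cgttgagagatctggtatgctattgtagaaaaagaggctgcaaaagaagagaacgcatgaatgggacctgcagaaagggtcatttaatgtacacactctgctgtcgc

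How far each gene could be told from its neighbours was visible in the counts. Among the values above 0, 95.8% were whole numbers (within 0.001) for Defa24 and 82.0% for Defa30, against 41.4% for Defa17, 37.8% for Defa3, 22.8% for Defa23 and 22.7% for Defa20. Of all stretches of 31 bases in its transcript, Defa24 held 42.9% and Defa30 29.6% that no other transcript of the locus shares. Defa23, Defa31, Defa20, Defa32, Defa2 and Defa33 held none of their own. Defa23 and Defa31 were given equal values in 1522 of the 1531 barcodes that hold both, and Defa3 and Defa17 in 2120 of 2299. Defa5 and Defa34, which differ at 4 coding bases, were equal in 570 of 601. Shares of Defa counts by class are therefore given below with such genes summed. The sums join Defa3 with Defa17, Defa23 with Defa31, Defa5 with Defa34, and Defa2 with Defa20, Defa32 and Defa33. Values of single genes below keep the estimated split.

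Promoter sequence was available for 16 of the 28 Defa genes in the RefSeq table of GRCm38.p6. Defa24, Defa17 and Defa3, which are among the Defa genes with most counts, had none there. Several of the 16 have near-identical coding sequences, such as Defa23 and Defa31, and are not independent instances. The motif CTTTGAT, which TCF/LEF factors of the Wnt pathway are known to bind, was searched on both strands in the 250 bases before each start. It was present in 13 of the 16 Defa promoters and occurred at least 2 times in 9 of them. Over all 32851 promoters of the table, 3.21% held it and 0.0822% held it at least 2 times. TATAAA was present in 15 of the 16, against 12.4% of all. CTTTGAA was found in none of the 16 (4.46% of all) and CAGCTG in 1 (13.0% of all); no motif searched overlaps another. Defa30 and Defa36 held CTTTGAT 1 time where Defa20 and Defa23 held it 2 times, and these 4 are shown so that the difference can be seen. Each line gives 100 bases that end with TATAAA, on the plus strand, with both motifs in capitals (CTTTGAT reads as ATCAAAG on this strand). A match is a description of these letters and not of factor binding.
Defa30, chr8:21134495-21134594: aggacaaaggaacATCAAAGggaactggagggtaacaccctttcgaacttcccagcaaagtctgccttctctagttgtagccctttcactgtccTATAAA
Defa36, chr8:21427288-21427387: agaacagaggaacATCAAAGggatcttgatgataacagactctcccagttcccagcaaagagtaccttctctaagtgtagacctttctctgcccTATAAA
Defa20, chr8:21509133-21509232: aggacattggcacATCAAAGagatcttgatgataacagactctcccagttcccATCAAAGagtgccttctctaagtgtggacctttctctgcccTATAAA
Defa23, chr8:21054913-21055012: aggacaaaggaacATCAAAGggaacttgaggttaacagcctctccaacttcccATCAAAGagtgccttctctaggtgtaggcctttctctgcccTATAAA

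The barcodes held 52495000 counts in all, with a median of 10453 per barcode. A single hashtag was called for 1814 barcodes, none for 1322 and several for 273. With at least 500 genes and at most 25% mitochondrial counts required, 1432 cells with 1 hashtag were left: 323 and 349 in control cultures 1 and 2, and 282, 281 and 197 in mutant cultures 1 to 3. Their counts summed to between 4193200 and 7254380 per culture.

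Over all barcodes the Defa genes took 185495 counts, 0.353% of the total. Defa24 led with 66762 counts, followed by Defa17 with 39946, Defa30 with 18614, Defa3 with 12999, Defa20 with 9650 and Defa23 with 7289. These 6 genes took 83.7% of the Defa counts. The other 22 ranged from 6.5 counts (Defa25) to 4618 (Defa31), and 4 of them stayed under 100. Of the remaining genes, Lyz1 held 19518 counts, Itln1 15078, Ang4 5189, Clps 2119, Mmp7 2086, Pla2g2a 729, Mptx1 353.5, Lyz2 50.4 and Mptx2 7.5. These are numbers of molecules counted and are not divided by transcript length.

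Defa transcripts were at once concentrated in very few barcodes and present in nearly all. The single richest barcode, a cell of control culture 1, held 32567 Defa counts, 17.6% of the total. The 10 richest held 52.9% and the 50 richest, 1.47% of all barcodes, held 76.3%. At the other end, 3385 of the 3409 barcodes held at least 1 Defa count and only 24 held none. Lyz1 was found in 1610 barcodes, Itln1 in 1425, Ang4 in 843, Mmp7 in 446, Clps in 275 and Pla2g2a in 144.

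The low Defa count of most barcodes hardly varied with how much RNA was recovered from them. The median was 6 Defa counts in barcodes under 1000 UMIs (unique molecular identifiers, the counted molecules), 9 from 1000 to 2000, 7 from 2000 to 5000, 6 from 5000 to 10000, 6 from 10000 to 20000, 5 from 20000 to 40000 and 6 at 40000 or more. As a share of a barcode's counts, the median fell from 0.898% in the shallowest group to 0.0127% in the deepest. Barcodes with more than 100 Defa counts, 114 in all, occurred only from 2000 UMIs upward, with 38 between 10000 and 20000. The median was between 5 and 6 in each of the 5 cultures, 7 in barcodes with no hashtag and 8 in barcodes with several.

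**Figure D1:**
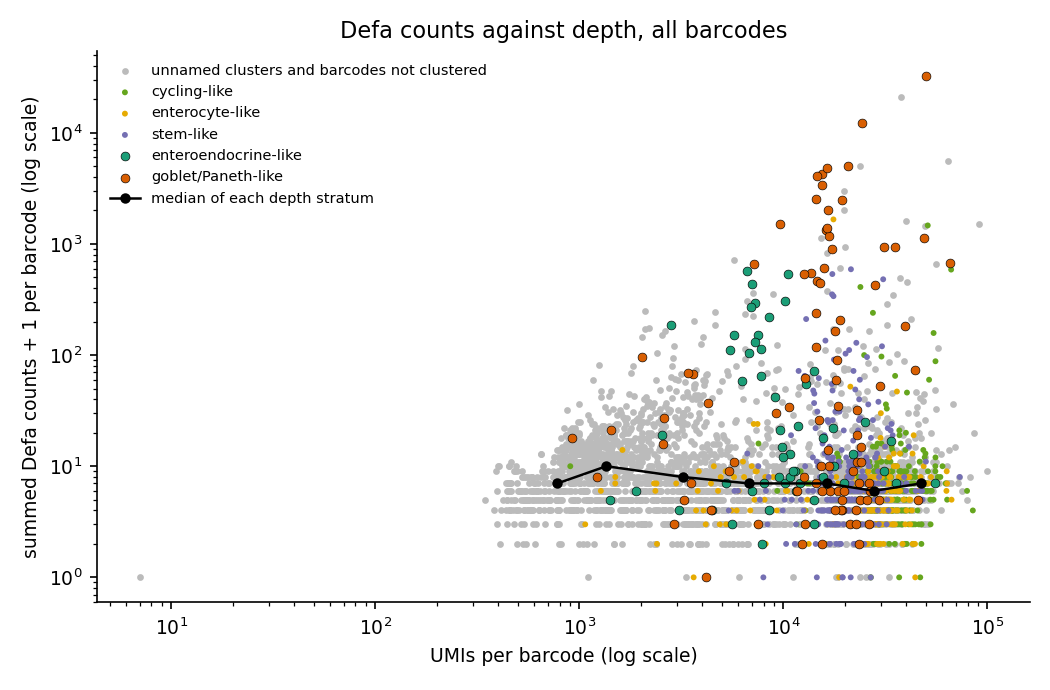
Summed Defa counts plus 1 (vertical, log scale) against total UMIs (horizontal, log scale) for all 3409 barcodes, 1 point each, with the goblet/Paneth-like, enteroendocrine-like, stem-like, cycling-like and enterocyte-like cells coloured and the median of each depth group joined by a black line. The line stays between 5 and 9 Defa counts across the whole range of depth, while 114 barcodes lie above 100.

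The 1432 cells were clustered without the 37 genes and without other defensin genes, so that the levels of these genes did not shape the clusters. One cluster of 92 cells carried 6 of 8 goblet markers (led by Spink4, Fcgbp, Muc2 and Tff3) together with 8 of 10 Paneth markers outside the 37 genes, and is called goblet/Paneth-like; no separate Paneth cluster formed. A cluster of 55 cells with all 10 enteroendocrine markers is called enteroendocrine-like, and 278, 260 and 232 cells were stem-like, cycling-like and enterocyte-like. The remaining 4 clusters were left unnamed. Immune markers were nearly absent, with 40 counts over 9 genes in the 1432 cells and 3 of the genes, Tyrobp, Adgre1 and Cd3e, at 0. The values that follow describe clusters and carry no test.

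The goblet/Paneth-like cells, 6.42% of the cells, held 78.7% of the Defa counts, 78.8% of the Lyz1, 79.1% of the Itln1, 68.9% of the Ang4, 72.4% of the Mmp7, 81.6% of the Clps, 88.7% of the Pla2g2a and 72.9% of the Mptx1 counts. Defa genes made up 16.9% of the counts of this class in control culture 1, 1.34% in control culture 2, and 5.44%, 4.27% and 0.310% in mutant cultures 1 to 3, a mean of 5.65% ± 6.62 (SD, n = 5 cultures). In stem-like cells the share was 0.0933% ± 0.0343 and in enterocyte-like cells 0.0525% ± 0.0711 (SD, n = 5 cultures each). The lowest of the 5 cultures in the goblet/Paneth-like class lay above the highest in the stem-like class, 0.129%. It did not lie above all clusters. In enteroendocrine-like cells the share ranged over the cultures from 0.351% to 1.06%. In an unnamed cluster of 65 cells with a median of 1263 UMIs it ranged from 0.998% to 1.32%. The goblet/Paneth-like range overlapped both.

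Lyz1 reached 4734 ± 2615 CPM (counts scaled to a total of 1000000) in goblet/Paneth-like cells (SD, n = 5 cultures) against 72.9 ± 35.2 in stem-like cells. Itln1 stood at 4643 ± 3769 against 112 ± 44.1. Ang4 stood at 1446 ± 906 against 26.2 ± 14.5. Clps, at 670 ± 379 against 10.6 ± 4.58, and Mmp7, at 525 ± 302 against 9.10 ± 5.53, followed the same order, as did Pla2g2a at 259 ± 142 against 1.15 ± 0.803. For these 6 genes the lowest culture in the goblet/Paneth-like class exceeded the highest in the stem-like class. Only for Lyz1 and Itln1 did it exceed the highest of every other cluster. For Ang4 the lowest was 604 CPM, against a highest of 750 in the unnamed cluster of 65 cells. For Pla2g2a these values were 37.4 and 107, for Clps 104 and 107, and for Mmp7 115 and 157. In enteroendocrine-like cells the highest culture was at 388 for Clps and 210 for Mmp7. Lyz2 was at 10.6 ± 4.42 and Mptx2 at 0.385 ± 0.861 CPM, each near the level of single molecules. Of the 54 barcodes with a Lyz2 value, 50 also held Lyz1, and 18.5% of the Lyz2 values were whole numbers against 97.3% for Lyz1.

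After thinning to equal depth, Defa detection separated the classes less sharply than the levels did. Most barcodes held a similar low Defa count at any depth, so thinning kept more of it in shallower barcodes. The thinned shares therefore also vary with original depth, and their order is not an order of expression. With each barcode thinned to 1000 UMIs, a Defa count was found in 62.6% of goblet/Paneth-like cells (exact binomial 95% interval 51.9% to 72.6%, 91 cells kept, 1 left out as too shallow), in 34.5% of stem-like cells (29.0% to 40.4%, 278 cells) and in 25% of enterocyte-like cells (19.6% to 31.1%, 232 cells). In enteroendocrine-like cells it was 54.5% (40.6% to 68.0%, 55 cells), and in the unnamed cluster of 168 cells led by mitochondrial genes, with a median of 5683 UMIs, 67.9% (60.2% to 74.9%, 165 cells), above the goblet/Paneth-like share. The intervals cover counting error only. Unthinned, the shares of goblet/Paneth-like, stem-like and enterocyte-like cells were 98.9%, 97.8% and 98.7%, at median depths of 16595, 20762 and 27077 UMIs. Lyz1 after the same thinning was found in 57.1%, 5.04% and 3.88% of these 3 classes. The unnamed cluster of 65 cells with a median of 1263 UMIs had a Defa count in all of the 56 cells kept (interval from 93.6%), the highest share of any cluster.

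Within the goblet/Paneth-like class the Defa count per cell ranged widely. The median was 22.5, 40 of the 92 cells held 10 or fewer, 31 held more than 100, and in 7 cells Defa genes made up more than 20% of all counts. The richest cell held 32567 Defa counts of 49738 (65.5%), and the next, also of control culture 1, 12366 of 24341 (50.8%). Of the 31 cells above 100 Defa counts, 25 also held at least 20 Lyz1 counts, 22 at least 20 Itln1, 14 at least 20 Clps, 11 at least 20 Mmp7, 11 at least 20 Ang4 and 4 at least 20 Pla2g2a. Of the 61 cells at or below 100 Defa counts, 23, 8, 0, 5, 11 and 1 did. Of the goblet markers, Spink4 reached 20 counts in 31 of the 31 and 30 of the 61, Tff3 in 31 and 41, Fcgbp in 19 and 25, and the mucin Muc2 in 0 and 2. These bounds are raw counts and were not scaled to depth. Each of the 31 cells held at least 7185 UMIs, while the 14 cells of the class under 5000 UMIs were all among the 61. The part of depth in these differences was not tested.

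The rank correlation over the 92 cells between the summed Defa level and other genes, all as counts scaled to the cell total, was 0.66 for Itln1, 0.64 for Pla2g2a, 0.57 for Clps, 0.51 for Lyz1, 0.40 for Mmp7, 0.30 for Ang4 and −0.10 for Mptx1. For the goblet markers it was 0.45 for Spink4, 0.20 for Muc2, 0.12 for Tff3 and 0.00 for Fcgbp. These cells share libraries and differ in depth, and the values are descriptions. Lyz1 without Defa was also seen: 11 cells held at least 20 Lyz1 counts and 10 or fewer Defa counts.

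Cells rich in Defa transcripts did not all carry the same ones. Defa24 led in 25 and Defa17 in 6 of the 31 cells above 100 Defa counts. In 7 of them a single gene took over 90%: one cell of mutant culture 2 held 602 Defa24 counts of 608 and one cell of mutant culture 3 held 199 Defa17 counts of 205. In 11 of the 31 the leading gene took under 50%, and the richest cell held 20 Defa genes with at least 20 counts each, with Defa24 at 25.02% of its Defa counts. The median over the 31 cells was 4 Defa genes with at least 20 counts. These leads, shares and numbers of genes follow the estimated split. They are uncertain for near-identical genes, such as Defa17 and Defa3, and for genes with no stretch of 31 bases of their own.

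Enteroendocrine-like cells, the hormone-producing cells of the epithelium, carried a different mixture. Defa30 made up 58.6% of their 4184 Defa counts and Defa5 with Defa34 another 23.1%, while Defa24 made up 2.65% and Defa3 with Defa17 4.56%. In the goblet/Paneth-like class the same 4 shares were 7.39%, 0.832%, 38.0% and 30.6%, and in barcodes under 2000 UMIs 10.7%, 3.54%, 27.8% and 25.9%. The Defa30 share in enteroendocrine-like cells ranged over the 5 cultures from 33.0% to 74.6%, with a mean of 56.4% ± 15.03 (SD, n = 5 cultures). In the goblet/Paneth-like class it was 7.85% ± 5.01 and ranged from 0.111% to 13.7%, so that the ranges did not overlap. In stem-like cells it was 9.45% ± 2.45, in cycling-like cells 11.7% ± 10.1 and in enterocyte-like cells 12.02% ± 5.58, with highest cultures of 12.3%, 28.4% and 21.7%. These shares are of counts summed over a culture, in which single rich cells weigh heavily. Among the enteroendocrine-like cells of mutant culture 3, the richest held 536 Defa counts and the next 22. In mutant culture 1 these were 270 and 54.

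**Figure D2:**
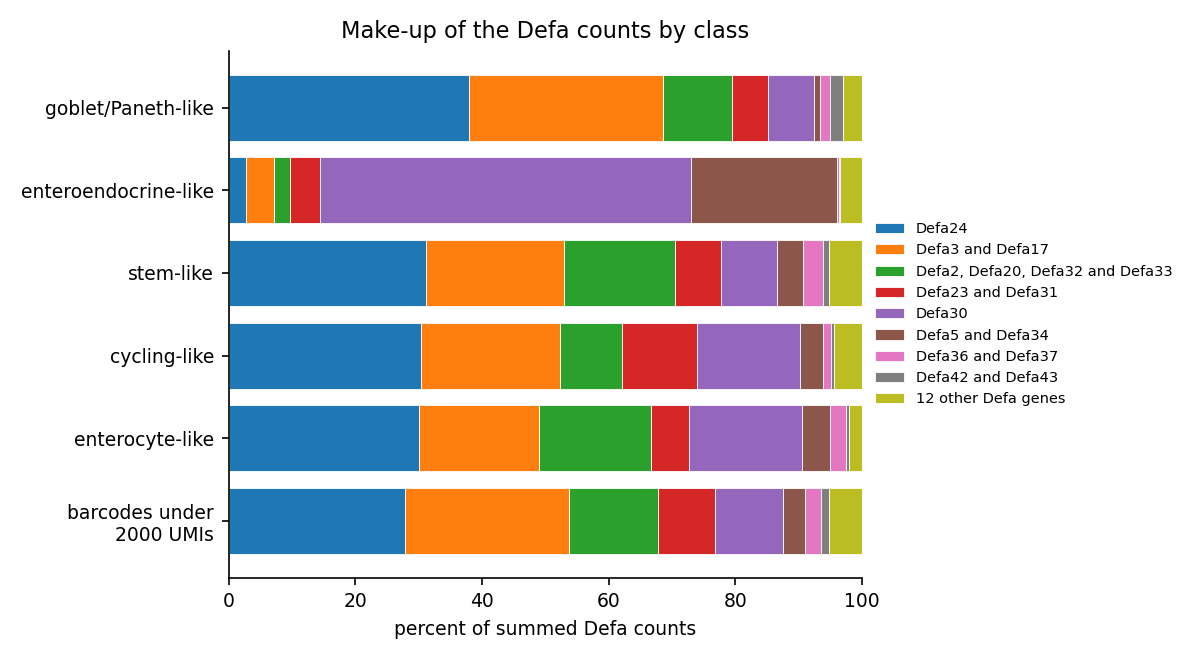
Stacked bars of the percent of summed Defa counts (horizontal axis) taken by each Defa gene or group of near-identical Defa genes, in 5 classes of cells and in barcodes under 2000 UMIs, all cultures pooled. Defa24 leads in every bar except that of the enteroendocrine-like cells, where Defa30 takes 58.6% and Defa5 with Defa34 23.1%.

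The Defa30 counts came from a distinct subset of enteroendocrine-like cells. Of the 55 cells, 19 held between 39 and 241.6 Defa30 counts, and the next cell held 16. The 19 cells came from all 5 cultures: 6 of 17 and 6 of 14 cells in the control cultures, and 2 of 7, 4 of 9 and 1 of 8 in the mutant cultures. As a share this is 34.5% of the class (exact binomial 95% interval 22.2% to 48.6%, counting error only), against 22.8% of goblet/Paneth-like cells (14.7% to 32.8%, an interval that overlaps the former), 1.80% of stem-like (0.587% to 4.15%), 1.54% of cycling-like and 0.431% of enterocyte-like cells with at least 20 Defa30 counts. No enteroendocrine-like cell held 20 Defa24 counts, which allows a share of up to 6.49% (exact binomial), and the highest held 11.0. With hashtags called by another method, MULTIseqDemux, 13 of 56 cells (23.2%) held at least 20 Defa30 counts and 1 at least 20 Defa24 counts, and over all barcodes that passed the filter, whatever their hashtags, 26 and 3 of 91. Defa30 reached 3760 ± 1882 CPM in the enteroendocrine-like class and 3812 ± 5255 in the goblet/Paneth-like class (SD, n = 5 cultures each), a difference smaller than the spread between cultures. The bound of 20 counts was set after the values were seen.

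Other products of Paneth cells were scarce in those 19 cells. Lyz1 was at 0 in 11 and at most 6 in the others except 1 cell with 36. Itln1 was at 0 in 10 and Mmp7 in 7, with at most 30 and 6 counts. In the other 36 cells Itln1 was at most 2. Lyz1 reached 10 counts in 1 of the 19 and 1 of the 36 cells, and Itln1 in 1 and 0. Ang4 did so in 1 and 1, Clps in 2 and 2 and Mmp7 in 0 and 0. Chga, the granule protein chromogranin A, was detected in all 19 and Chgb in 18, with a median of 71 Chgb counts in the 19 cells and 4 in the other 36. The other markers did not share this difference. The Chga medians were 13 and 13.5. Neurog3 reached 10 counts in 3 of the 19 and 10 of the 36, and Reg4 in the same numbers. Secretin (Sct) reached 10 counts in 9 of the 19 and 9 of the 36, and glucagon (Gcg) in 0 and 5. Defa34 reached 20 counts in 8 of the 19 cells. Median depth was 7264 UMIs in the 19 cells and 10988 in the 36. Doublets were not called, and the part they have in these counts was not tested.

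Over the 55 cells, 5196 genes detected in at least 25% of them were ranked by how like their level, scaled to the cell total, was to that of Defa30. Among the most like were Defa34 (rank correlation 0.59), Srsf1 (0.58), Gadd45a (0.58) and Tifa (0.57). The cells share libraries and differ in depth, and these are descriptions.

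**Figure D3:**
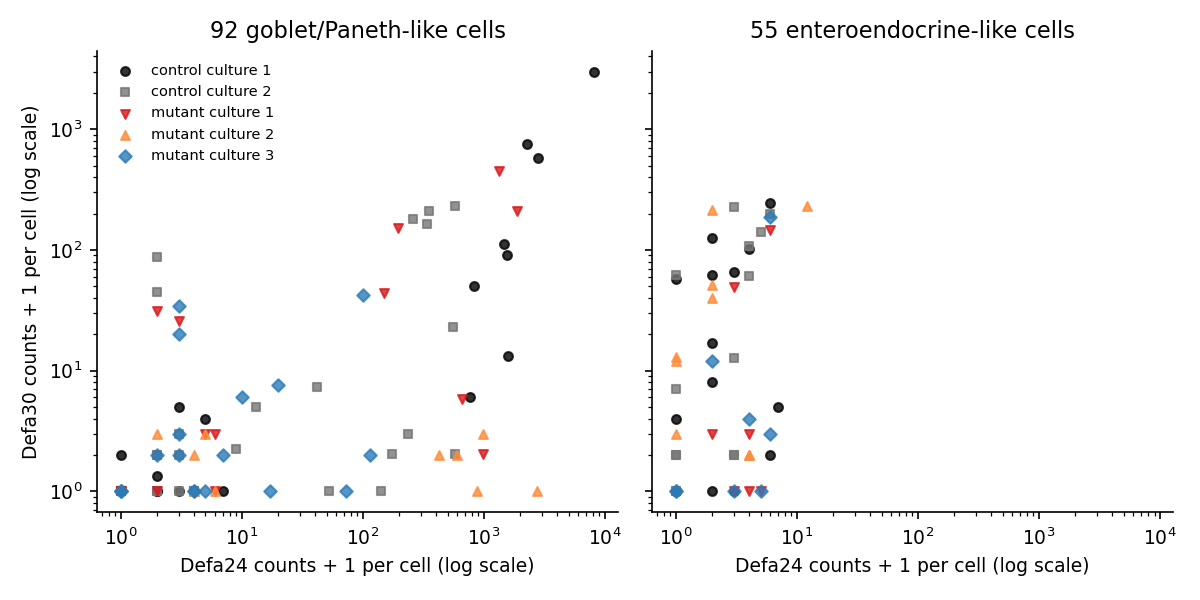
Defa30 counts plus 1 (vertical, log scale) against Defa24 counts plus 1 (horizontal, log scale) in each of the 92 goblet/Paneth-like cells (left) and 55 enteroendocrine-like cells (right), 1 symbol per cell and 1 symbol style per culture. On the left 5 of the 21 cells with at least 20 Defa30 counts hold under 20 Defa24 counts, while on the right 19 cells from all 5 cultures hold at least 39 Defa30 counts with no more than 11.0 Defa24 counts.

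Barcodes under 5000 UMIs were compared with deeper ones of the same culture, which asks how much of the RNA in shallow barcodes comes from these genes. In 4 of 5 cultures the summed Defa level was higher in the shallow barcodes: 6282 against 1779 CPM in control culture 2, and 4711 against 2666, 5891 against 1788 and 3805 against 983 in mutant cultures 1 to 3. Control culture 1 went the other way, with 4453 against 9187. The shallow sums of the 5 cultures ranged from 3805 to 6282 and the deep sums from 983 to 9187. Of the 29 members that passed the filter on low counts, 22 were higher in shallow barcodes and 0 lower by edgeR's quasi-likelihood test with culture as a block (Benjamini-Hochberg adjusted p under 0.05), where 21.9% of all 9572 genes tested were higher and 44.3% were called in either direction. Their median log2 fold change was 1.09, against 0.04 for all genes.

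The 4 largest differences were those of genes with few counts, 208 to 921 each over all barcodes. Defa42 was 3.51 log2 units higher in shallow barcodes (SE 0.38, adjusted p 1.02e-08), Defa5 3.38 (SE 0.39, adjusted p 2.63e-08), Defa35 2.92 (SE 0.30, adjusted p 2.99e-09) and Defa37 2.42 (SE 0.28, adjusted p 3.71e-08), all in edgeR. Defa31 at 2.03, Defa21 at 2.03, Defa39 at 1.97, Defa2 at 1.78, Defa23 at 1.76, Defa33 at 1.68, Defa22 at 1.47, Defa32 at 1.46 and Defa27 at 1.23 came next, with standard errors from 0.28 to 0.55. For the reasons given above, the split of counts is uncertain among Defa2, Defa33, Defa32 and Defa20 and between Defa23 and Defa31. So it is between Defa3 and Defa17, between Defa36 and Defa37, between Defa42 and Defa43 and among Defa5, Defa34 and Defa35. Defa35 differs from Defa5 at 3 coding bases. Defa37 and Defa42 were called while Defa36 (0.73, SE 0.40) and Defa43 (−0.43, SE 0.55) were not. In goblet/Paneth-like cells Defa42 held 4.51 counts and Defa43 1887, against 47.5 and 55.5 in barcodes under 2000 UMIs. Defa5 and Defa34 held 34.3 and 708, against 98.3 and 166. The part of this division in the differences of single genes was not tested.

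Among the most abundant genes, Defa24 was 0.54 log2 units higher in shallow barcodes (SE 0.21, edgeR adjusted p 0.0329), Defa17 0.69 (SE 0.26, adjusted p 0.0278), Defa3 1.47 (SE 0.29, adjusted p 0.000113), Defa30 1.09 (SE 0.27, adjusted p 0.00126) and Defa34 0.89 (SE 0.24, adjusted p 0.00327). Defa20 gave 0.44 (SE 0.22, adjusted p 0.0981). Lyz1 was 0.74 higher (SE 0.13, adjusted p 3.43e-05), Ang4 0.75 (SE 0.18, adjusted p 0.000893), Itln1 0.64 (SE 0.13, adjusted p 0.000285) and Mmp7 0.68 (SE 0.25, adjusted p 0.0273). Pla2g2a (0.37, SE 0.36, adjusted p 0.433) and Clps (−0.11, SE 0.24, adjusted p 0.732) did not pass, and Lyz2, Mptx1 and Mptx2 were below the filter.

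Leaving the goblet/Paneth-like and enteroendocrine-like cells out of both strata, a choice made after seeing the data, gave 27 of 27 members higher in shallow barcodes, where 22.5% of all genes tested were higher, with a median log2 fold change of 2.91. Defa24 then stood at 2.77 (SE 0.11), Defa17 at 3.33 (SE 0.13), Defa30 at 2.86 (SE 0.21), Lyz1 at 2.65 (SE 0.15), Itln1 at 2.70 (SE 0.14) and Clps at 3.05 (SE 0.33). The 2 classes left out had 78 and 49 deep cells against 14 and 6 shallow ones. They held 78.7% and 3.69% of the Defa counts of the clustered cells. Leaving them out therefore itself lowers the deep sums of the members, and the size of these differences follows in part from that choice. Only barcodes that passed the cell filter were clustered, so this removal left in place the 333 of 522 shallow and 49 of 1292 deep barcodes that failed it. With failed barcodes left out of both strata as well, 24 of 24 members were higher by the same edgeR test, where 8.2% of all genes tested were, with a median of 2.81, Defa24 at 2.85 (SE 0.16) and Lyz1 at 2.63 (SE 0.19). In the 5 cultures with all barcodes kept, the shallow barcodes' median mitochondrial share was 19.2% to 25.3% per culture against 3.46% to 3.91% in deep barcodes. The goblet marker list summed to 1507 to 2148 CPM per culture in shallow and 1085 to 2050 in deep barcodes, and the 10 other Paneth markers to 460 to 746 and 518 to 813. Other lists moved more: the tuft list had a median over cultures of 165 CPM in shallow and 5.68 in deep barcodes, the enterocyte list 2734 and 1981, and the enteroendocrine list 249 and 185, with highest cultures of 2920 and 567. Their part in the members' levels was not tested. Depth, cell type and cell quality cannot be told apart in this comparison.

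**Figure D4:**
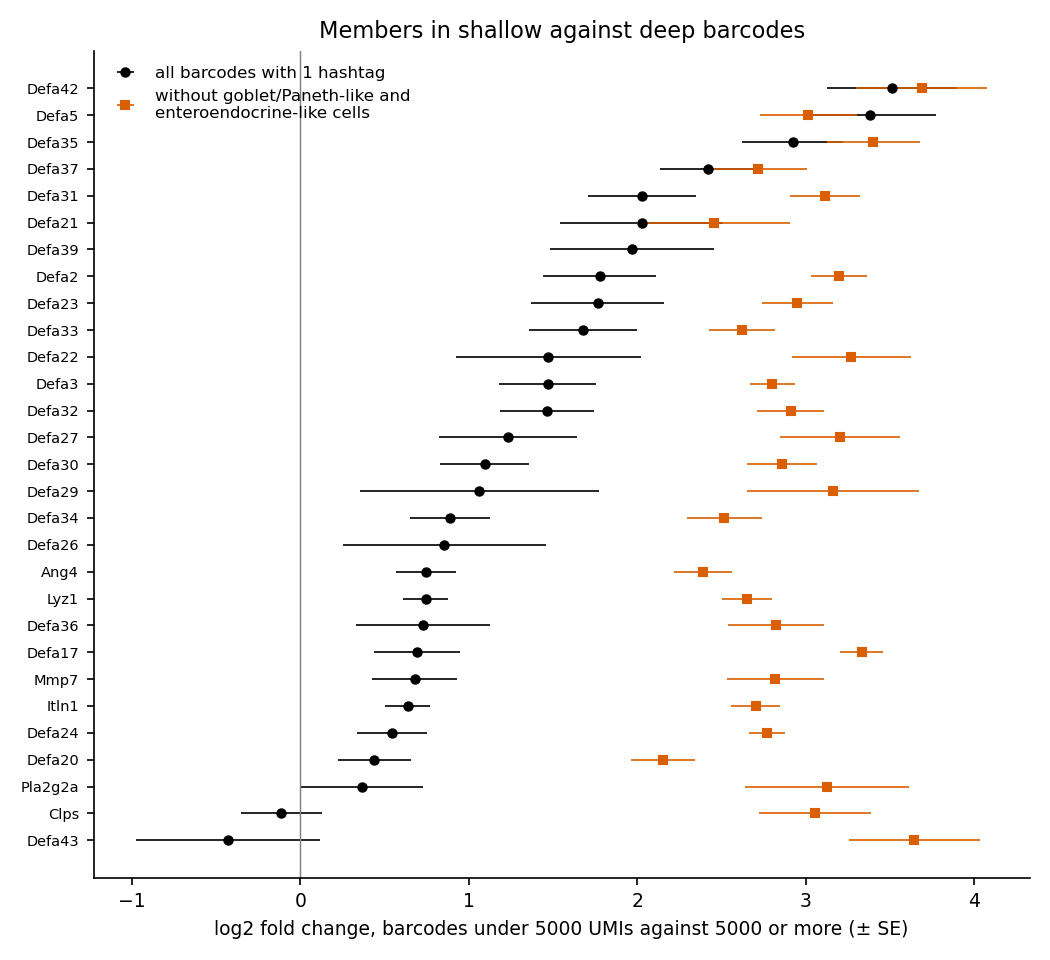
Log2 fold change (horizontal, ± SE from edgeR) of each gene that passed the filter, barcodes under 5000 UMIs against deeper ones of the same culture, for all barcodes with 1 hashtag (black) and without goblet/Paneth-like and enteroendocrine-like cells (orange, 27 genes). Without these cells all 27 genes lie between 2.15 and 3.69.

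The mutant cultures were then compared with the controls. Over all cells the summed Defa level was 9195 and 1861 CPM in control cultures 1 and 2, and 2729, 1928 and 941 in mutant cultures 1 to 3. The highest value was that of 1 control culture, and the other control lay inside the range of the mutants. The group means were 5528 ± 5186 (SD, n = 2) and 1866 ± 896 (SD, n = 3), a log2 ratio of −1.57, which was within the spread of the cultures (1.81 log2 units, the SDs of both groups combined). A single cell held 48.8% of the Defa counts of control culture 1 and 3 cells held 73.8%, while the 3 richest cells held 31.8% to 57.8% in the other 4 cultures. With MULTIseqDemux in place of HTODemux the log2 ratio was −0.08. Without control culture 1 it was 0.00345, and without control culture 2 it was −2.30.

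In edgeR's quasi-likelihood test over all cells, 30 of the 37 genes passed the filter and 0 had an adjusted p under 0.05, where 0.00904% of all 11061 genes tested were lower in the mutants and 0 were higher. At an unadjusted p under 0.05 there were 15, where 3.05% of all genes tested were, and DESeq2 called 2, Ang4 and Clps, both lower, where it called 0.0814% of all genes. Of the 30 genes, 28 had a log2 fold change below 0, with a median of −1.37 against 0.00 for all genes. Without control culture 1 the median was 0.09 and 1 gene, Lyz1, was called (0.053% of all genes tested), and without control culture 2 Defa22, Defa29 and Defa2 were called, all lower (0.0443% of all genes tested). With hashtags called by MULTIseqDemux the median was −0.06. In 6 of the 30 every mutant culture lay below both controls, where 7.77% of all genes tested did so. Of the 26 genes tested from a list of 30 other genes of the Paneth programme (among them Atoh1, Sox9, Spdef and the Reg3 genes), 0 passed edgeR's adjusted threshold in either direction, 3 had an unadjusted p under 0.05, 16 lay below 0, and their median was −0.07.

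The 6 genes without overlap were Ang4, Clps, Defa30, Defa34, Mmp7 and Pla2g2a. Ang4 stood at 194 and 141 CPM in the controls and at 87.2, 49.7 and 77.5 in the mutants (log2 fold change −1.24, SE 0.24, edgeR adjusted p 0.9997). Clps stood at 56.1 and 76.1 against 25.02, 36.1 and 15.3 (−1.35, SE 0.30, adjusted p 0.9997). Defa30 stood at 845 and 307.6 against 295, 130 and 131 (−1.65, SE 0.48, adjusted p 0.9997), with control culture 2 just above mutant culture 1. Defa34 stood at 107 and 70.9 against 37.4, 36.5 and 59.9 (−1.02, SE 0.26, adjusted p 0.9997). For Mmp7 the values were 43.7 and 78.3 against 40.1, 11.0 and 31.003, and for Pla2g2a 17.1 and 24.7 against 15.7, 8.10 and 5.25.

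Most of the other genes followed 1 culture. Defa24 stood at 2890 and 681 CPM in the controls and at 1041, 1034 and 242 in the mutants, Defa17 at 2162 and 341 against 507, 377 and 169, and Defa3 at 638 and 111 against 181, 104 and 59.6. Defa20 stood at 502 and 72.1 against 180, 47.4 and 35.9, and Defa23 at 456 and 47.0 against 84.4, 29.0 and 48.8. In these 5 genes control culture 1 was the highest and control culture 2 lay inside the range of the mutants. Lyz1 had the opposite order of controls, with 174 and 692 against 206, 255 and 221. Itln1 stood at 301 and 375 against 131, 359 and 151, and the groups overlapped. Mptx1 stood at 0.965 and 14.3 against 2.41, 3.06 and 0.477, Lyz2 between 0.937 and 1.49 in all 5 cultures, and Mptx2 at 0 to 0.641.

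Goblet/Paneth-like cells made up 5.26% and 9.17% of the cells of control cultures 1 and 2 (17 and 32 cells) and 4.96%, 3.91% and 9.14% of those of mutant cultures 1 to 3 (14, 11 and 18 cells). Enteroendocrine-like cells made up 5.26% and 4.01% (17 and 14 cells) against 2.48%, 3.20% and 4.06% (7, 9 and 8 cells). For both classes the ranges of the groups overlapped. In sums over a culture, fewer such cells and less RNA per cell cannot be told apart. The enteroendocrine marker list summed to 196 and 645 CPM in the controls and 178 to 185 in the mutants; its part in the lower Defa30 and Defa34 sums was not tested. With the goblet/Paneth-like and enteroendocrine-like cells left out, after seeing the data, the summed Defa level was 741 and 745 in the controls and 756, 565 and 599 in the mutants, 0 of 29 members tested were called by edgeR, 5 had an unadjusted p under 0.05, and 13 lay above 0 and 16 below.

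Within the goblet/Paneth-like cells the summed Defa level was 168765 and 13387 CPM in the controls and 54405, 42729 and 3103 in the mutants. By edgeR's quasi-likelihood test 0 of the 23 genes that passed the filter were called, as were 0% of all 4491 genes tested; 9 had an unadjusted p under 0.05, where 3.54% of all genes tested did, and DESeq2 called 0 of them and 0.0223% of all genes. All 23 had a log2 fold change below 0 (median −2.09, against 0.00 for all genes), and without control culture 1 the median was 0.87 and 3 were called, 2 of them higher (0.195% of all genes tested). Without control culture 2 the median was −3.31 and 24 were called lower (0.728% of all genes tested), and without mutant culture 2 Defa34 alone was called (0.0706%). With no filter on low counts 26 of all 37 were called lower, where 0.339% of all genes tested were called. With MULTIseqDemux 0 were called and the median was −0.01. Mutant culture 1 then held 9 cells of the class, under the minimum of 10 per culture set for this test. The lowest adjusted p was that of Defa34 (log2 fold change −3.57, SE 0.85, edgeR adjusted p 0.896). In 4 of the 23 every mutant culture lay below both controls, where 4.59% of all genes tested did so: Ang4 (2971 and 1364 against 1325, 966 and 604 CPM), Clps (974 and 925 against 455, 892 and 104), Mmp7 (746 and 788 against 683, 115 and 290) and Defa34 (1462 and 237 against 14.9, 218 and 37.4). Lyz1 (2381 and 7601 against 4720, 7079 and 1889) and Itln1 (5298 and 3797 against 2432, 10739 and 952) overlapped. Of the 20 other Paneth programme genes tested here, 0 passed edgeR's adjusted threshold and 2 had an unadjusted p under 0.05.

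**Figure D5:**
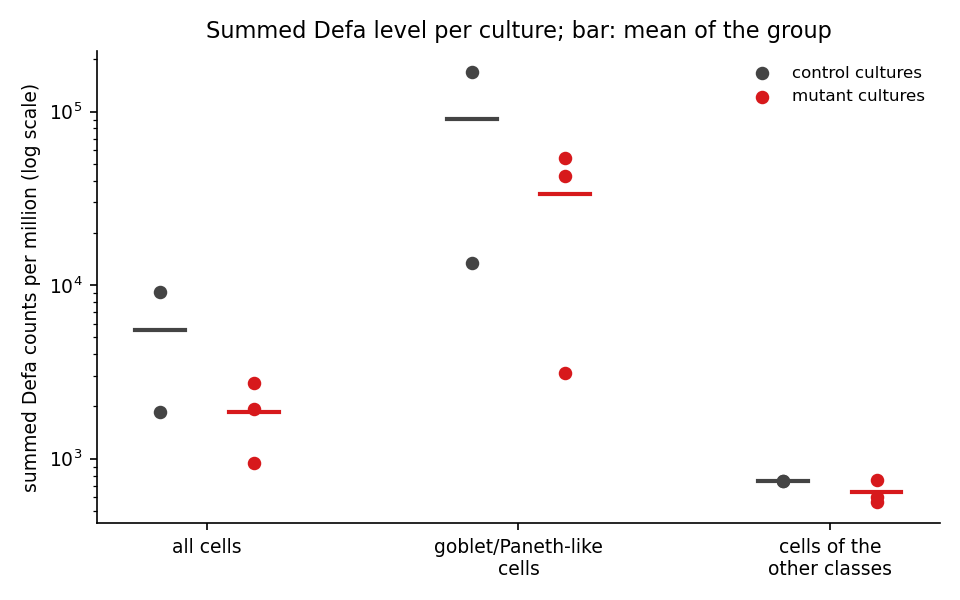
Summed Defa level in CPM (vertical, log scale) in each control (grey) and mutant (red) culture, over all 1432 cells, over goblet/Paneth-like cells and over the cells left when goblet/Paneth-like and enteroendocrine-like cells are removed, with a bar at each group's mean. The controls lie at 9195 and 1861 over all cells, on either side of the highest mutant culture, and at 741 and 745 in the remaining cells.

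The list of 30 other Paneth programme genes did not follow the 37 genes across depth. Of its 24 genes tested, 4 were higher in shallow barcodes (Kit, Pigr, Ern1 and Atg16l1) and 8 lower (Mt1, Reg3g, Reg3b, Reg3a, Atg5, Cd24a, Sox9 and Mt2) by edgeR's adjusted p, where 21.9% of all genes tested were higher and 22.3% lower, and their median log2 fold change was −0.21. Reg3g, a secreted lectin of enterocytes and Paneth cells, stood at −1.28 (SE 0.15) and Reg3b at −1.12 (SE 0.21), and Kit, the receptor found on secretory cells of the crypt, at 1.98 (SE 0.27). Of defensin genes listed under other symbols, only AY761185 held counts, 6 in all.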

How the data were processed

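Per the labels, RNA and hashtag libraries of 1 pool were sequenced; the tools named in the submitters' processing notes, without their roles, are Salmon 1.4.0 with alevin, Cell Ranger 6.1.0 and Seurat 4.3.0, and the build is mm10. The deposited hashtag file holds raw counts per barcode, and the deposited RNA file estimated counts (95.7% whole). Whether counting used strand is not stated. Hashtags were called with HTODemux (Seurat 5.3.0, positive quantile 0.99) and cells were kept with at least 500 genes and at most 25% mitochondrial counts; doublets were removed only through several hashtags. Cells were clustered in scanpy 1.11.5 (2000 variable genes, 30 components, 15 neighbours, Leiden resolution 0.8) and named from marker lists. Counts were summed per culture, rounded and tested in edgeR 4.0.16 (TMM, filterByExpr, quasi-likelihood), with DESeq2 1.42.0 as an alternative; the script was tested on simulated data. Depth ranged from 4193200 to 7254380 counts per culture. Full values are given for genes that passed a test, the 6 Defa genes with most counts and the 9 others. The genes and lists were chosen with earlier results of these data known. The labels call the cultures biological replicates and do not say from how many mice they came. Sequences are from GENCODE vM21 and RefSeq (GRCm38.p6), matched by symbol for 37 of 37 genes and to transcripts by position; protein sequences were not used here. One gene from the ranking of genes by likeness to Defa30 is not reported here.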

Additional observations from a re-analysis of the deposited data

Results flagged for a closer look

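Barcodes outside the comparison of cultures also held Defa counts: those with no hashtag called held 23.0% of all Defa counts, with 1 barcode of 20866 among them, and those with several hashtags held 13.9%. More than 100 Defa counts were found in 1.51% of the barcodes with no hashtag, 7.69% of those with several and 4.02% of those with 1.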

How the results depend on the processing

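With 2 control and 3 mutant cultures, calls between the groups turned on single cultures. No paired analysis was possible because the labels give the cultures no replicate numbers, and those used here follow the order of the hashtags and pair nothing; the comparison of depth had culture as a block throughout. Over all cells, 0 members were called; DESeq2 called 2, and leaving out 1 culture gave 0 to 3. Within goblet/Paneth-like cells 0 were called; with no filter on low counts 26 of 37 were, all lower, and leaving out 1 culture gave 0 to 24, with 24 without control culture 2 and, without control culture 1, 3, of which 2 were higher. Where 1 control was left, its spread was taken as that of the mutants. The summed Defa log2 ratio of mutants to controls (−1.57) was −0.08 with MULTIseqDemux calls and changed sign, to 0.00345, without control culture 1; leaving out 1 culture gave −2.30 to 0.00345. MULTIseqDemux moved the median of members to −0.06 over all cells and −0.01 within the class; the cause was not tested. The shallow against deep comparison called 16 to 27 members under every alternative run, all higher except 1 (Defa43) with a bound of 10000 UMIs. A Defa count after thinning was found in 91.7% of barcodes under 5000 UMIs at 1000 UMIs, 82.3% at 500 and 97.6% at 2000, which follows from the number of UMIs kept. Member shares of the classes kept within the spread of cultures under each clustering run. For cycling-like cells that spread was wide (SD 0.0651). Their share went from 0.0761% to 0.0280% when clustered with the members. Defa30 took 52.7% to 58.6% of Defa counts in enteroendocrine-like cells under the clusterings and hashtag calls run, added after seeing the data. Genes with few counts, such as Lyz2 and Mptx2, could not be compared at this depth.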
